A study of Mus musculus with 2 samples.

Results

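The 10 genes described here carry iron into, through and out of cells, store it, or release it from haem: Cp, Slc40a1, Steap4, Steap3, Tfrc, Slc11a1, Slc11a2, Fth1, Ftl1 and Hmox1. They were taken by symbol from a deposited table of 54751 genes, and each symbol matched 1 row. The names were chosen with the results of the same comparison known, so the ratios of the 10 genes describe 2 libraries and carry no test. The cells were wild-type MDSCs (myeloid-derived suppressor cells, an immature myeloid population defined by its capacity to restrain T cells) grown from mouse bone marrow in RPMI 1640 medium with serum. One culture was given mrWNT2, which the labels name after the secreted signalling ligand WNT2, on day 0 and day 3, and the other was given vehicle on the same days. Both were collected on day 6. The labels used here give no strain, sex, age or dose, and do not say how many animals supplied the marrow. RNA-seq gave 1 library per group, so no difference below has a replicate check, and every interval is an exact 95% binomial (Clopper-Pearson) interval that covers counting error only. It compares the 2 libraries, not the conditions.

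Cells take up iron bound to transferrin through the transferrin receptor, or as ferrous iron through divalent metal transporters, after metalloreductases have reduced ferric iron. Surplus iron is stored in ferritin, a shell of heavy and light chains, or leaves through ferroportin, the only known mammalian iron exporter, helped by ferroxidases such as ceruloplasmin. Macrophages recover iron from the haem of old red cells with haem oxygenase. During infection and inflammation, myeloid cells are known to hold iron back from microbes. Iron regulatory proteins set much of this system after transcription, by binding a short RNA hairpin, the iron-responsive element. In the 5′ UTR the hairpin lets them block translation, and in the 3′ UTR of the transferrin receptor it lets them stabilise the message.

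The hairpin was searched for in the annotated transcripts because it is a known feature of several iron genes. Matches among the 10 could be foreseen, so the share below describes the genes and is no test. The pattern was an unpaired C, 5 bases, the loop CAGTGN and 5 bases that pair with the first 5, which makes 17 bases in all. It was found in a UTR of 4 of the 10 genes, against 0.708% of 21899 protein-coding genes. The matches are printed 5′ to 3′ in DNA letters with 5 flanking bases on each side and the 6 loop bases in capitals. Positions are those of the GENCODE M21 annotation on GRCm38.

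Fth1, 5′ UTR, plus strand, chr19:9982733-9982759: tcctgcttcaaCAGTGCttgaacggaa
Ftl1, 5′ UTR, minus strand, chr7:45459780-45459806: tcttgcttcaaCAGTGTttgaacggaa
Slc40a1, 5′ UTR, minus strand, chr1:45925466-45925492: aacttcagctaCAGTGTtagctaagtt
Tfrc, 3′ UTR, plus strand, chr16:32631220-32631246: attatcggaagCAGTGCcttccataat
Tfrc, 3′ UTR, plus strand, chr16:32631599-32631625: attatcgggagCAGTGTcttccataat
Tfrc, 3′ UTR, plus strand, chr16:32631664-32631690: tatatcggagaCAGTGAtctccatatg
Tfrc, 3′ UTR, plus strand, chr16:32631711-32631737: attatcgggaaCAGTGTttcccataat

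Both ferritin genes and Slc40a1 thus carry a match ahead of the coding region, and Tfrc has 4 matches behind its own. No match in the other 6 genes, Slc11a2 among them, says only that this pattern is not in their annotated UTRs. A hairpin with an imperfect stem would be missed, so these genes may still be under iron regulatory proteins. A transcript count does not show translation, so the binding of iron regulatory proteins was not measured here.

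In the mrWNT2 library, 6 of the 10 genes were at least 1.5-fold higher than in control, 1 was at least 1.5-fold lower and 3 lay between. All 10 averaged 1 CPM or more, where CPM is the count scaled by the TMM-adjusted total of its library. Of the 12856 genes at that level, 7.62% passed the same mark upwards and 7.02% downwards. At 2-fold, 3 of the 10 were higher and 0 lower, against 3.38% and 2.49% of all genes. These counts include Cp and Steap4, which reached the 1 CPM mean only through the mrWNT2 library, each being at 0.823 CPM in control. The median log2 ratio of the 10 was 0.79, beside 0.02 over all genes, and the choice of genes used these ratios. The higher genes were the ferroxidase gene Cp, both metalloreductase genes, both SLC11 transporter genes and the ferritin heavy chain gene. The lower one was the exporter gene Slc40a1, and the genes between were Ftl1, Tfrc and Hmox1.

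**Figure D1:**
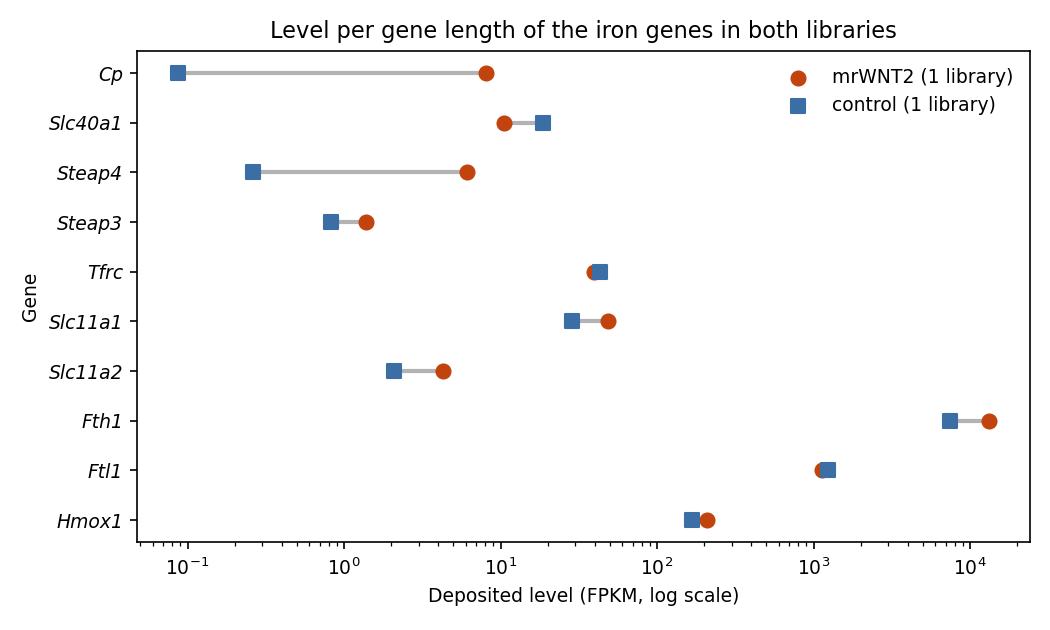
Deposited FPKM (fragments relative to gene length and library size, log scale, horizontal axis) of each gene (vertical axis) in the mrWNT2 library (circles) and the control library (squares), with 1 library per point. Cp and Steap4 were the lowest of the 10 in control, at 0.0870 and 0.264 FPKM, and stood at 8.03 and 6.11 FPKM in the mrWNT2 library, while Fth1 was the highest in both.

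Per gene length, the 10 genes spanned 1.39 to 13248 FPKM in the mrWNT2 library and 0.0870 to 7425 FPKM in control. Fth1, Ftl1 and Hmox1 held the top 3 places in each library. Cp stood at place 7 of the 10 in the mrWNT2 library and at place 10 in control, and Steap4 at place 8 and place 9. Slc11a1 was above Tfrc in the mrWNT2 library, at 48.4 and 39.6 FPKM, and below it in control, at 28.8 and 43.2 FPKM.

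Export was described by an exporter gene and a ferroxidase gene that differed in opposite directions. Slc40a1 (ENSMUSG00000025993, chromosome 1, 45908068 to 45926523, minus strand, GRCm38) encodes ferroportin. It had 1224 counts in the mrWNT2 library, or 96.3 CPM, and 2227 counts in control, or 167 CPM. The ratio was 1.73-fold lower (interval 1.61 to 1.86), which put it at place 502 from the lowest of the 12856 genes.

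Cp (ENSMUSG00000003617, chromosome 3, 19957054 to 20009145, plus strand) encodes ceruloplasmin, a copper-loaded plasma ferroxidase that is also made in a membrane-anchored form. Gene counts do not separate the forms. Cp had 988 counts in the mrWNT2 library and 11 in control, or 77.7 and 0.823 CPM. Control was close to the floor, since 3 counts correspond to 0.224 CPM there, and the 94.5-fold ratio accordingly had a wide interval of 52.6 to 189.8. By ratio it was second among the 12856 genes, and by FPKM it stood at rank 5171 in the mrWNT2 library and 17694 in control. The level of Slc40a1 per gene length was 1.32 times that of Cp in the mrWNT2 library and 215 times that of Cp in control.

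The strand setting of the counting was not stated, and Cp overlaps Hps3 on the opposite strand over 13201 bases. Hps3 had 695 counts in the mrWNT2 library and 883 in control, a log2 ratio of -0.27 (-0.42 to -0.13), so the overlapping gene was slightly lower in the mrWNT2 library. Heph, which encodes the membrane ferroxidase hephaestin, had 9 counts in each library (0.708 and 0.673 CPM), below the level at which genes were compared. Hamp, which encodes hepcidin, the hormone that removes ferroportin from the cell surface, had 3 counts in the mrWNT2 library and 0 in control, where 0 allows up to 0.224 CPM. Ceruloplasmin is best known as a liver product, and 5 of 6 hepatocyte markers, Alb, Apoa1, Ttr, Serpina1a and Fgb, had 0 counts in both libraries. The other marker was Hamp. The cell source of the Cp counts, and any part of Hps3 reads in them, was not tested.

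Slc40a1 is strongly expressed by macrophages that recycle red cells, and markers of macrophages also differed between the libraries. Of 15 markers, 14 were measured: 9 were at least 1.5-fold lower in the mrWNT2 library, 2 at least 1.5-fold higher and 3 between. Their summed level was 1965 CPM in the mrWNT2 library and 3104 CPM in control, and Timd4 had 0 counts in both. The lower sum came mainly from Mrc1, at 307 and 943 CPM, and Apoe, at 313 and 796 CPM. Adgre1 went the other way, at 584 CPM in the mrWNT2 library and 325 CPM in control. Among all 12856 genes, 7.02% passed the same mark downwards and 7.62% upwards. The 9 lower markers were Mrc1, Apoe, C1qa, C1qb, C1qc, Cd163, Vcam1, Vsig4 and Cd5l. They ranged from 1.97-fold lower (C1qa) to 18.6-fold lower (Cd5l, with 11 counts in the mrWNT2 library). The 2 higher markers were Adgre1, which encodes F4/80, and Spic, which encodes a transcription factor needed for red pulp macrophages. Spic had 453 counts in the mrWNT2 library and 180 in control (2.65-fold higher, 2.22 to 3.16). The 3 between were Cd68 (1.26-fold higher, 1.21 to 1.32), Mertk (1.08-fold higher, 0.982 to 1.19) and Trem2 (1.28-fold lower, 1.05 to 1.58). In bulk RNA, fewer cells of a type and less RNA per cell cannot be told apart, and the part of macrophage content in the Slc40a1 value was not tested.

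Steap3 and Steap4 were both higher, by very different factors. These enzymes reduce ferric and cupric ions so that transporters can carry them. Steap4 (ENSMUSG00000012428, chromosome 5, 7960457 to 7982213, plus strand), whose product is known from adipose tissue and inflammation, had 248 counts in the mrWNT2 library and 11 in control, or 19.5 and 0.823 CPM. Its ratio was 23.7-fold higher (13.0 to 48.1), and it was at place 14 from the top among the 12856 genes. Steap3 (ENSMUSG00000026389, chromosome 1, 120190757 to 120272705, minus strand) encodes the main ferrireductase of transferrin endosomes in erythroid precursors. It had 102 counts in the mrWNT2 library and 62 in control (1.73-fold higher, 1.25 to 2.41).

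The counting intervals of the STEAP genes did not overlap, but Steap4 rests on 11 counts in control, and the difference between their ratios was not tested. Per gene length, Steap4 was at 4.40 times the level of Steap3 in the mrWNT2 library and at 0.321 times that level in control, so their order differed between the libraries. The other 2 genes of the family were close to absent: Steap2 had 1 count in the mrWNT2 library and 6 in control, and Steap1 had 0 in both.

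Cp and Steap4 had the highest ratios of the 10, and the 250 bases before a RefSeq start of each are printed because the 2 genes were high in the same library. Distances are counted from the RefSeq starts, and the Steap4 window ends at 7960471, inside the deposited gene, which starts at 7960457. The windows are RefSeq promoters of build GRCm38.p6, which held entries for 7 of the 10 genes in 13 windows. They were searched on both strands for TTCNNNGAA (STAT), TTGCNNAA (C/EBP), TGANNNNGC (NRF2), GGGNNTTCC (NF-kB) and ACGTG (HIF), and matches are in capitals.

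Cp, plus strand, chr3:19956804-19957053: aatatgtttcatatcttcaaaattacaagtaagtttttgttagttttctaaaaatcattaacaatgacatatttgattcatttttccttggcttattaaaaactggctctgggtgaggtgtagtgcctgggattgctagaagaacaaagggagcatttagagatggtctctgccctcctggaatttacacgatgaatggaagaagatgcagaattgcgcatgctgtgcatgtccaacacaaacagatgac
Steap4, plus strand, chr5:7960222-7960471: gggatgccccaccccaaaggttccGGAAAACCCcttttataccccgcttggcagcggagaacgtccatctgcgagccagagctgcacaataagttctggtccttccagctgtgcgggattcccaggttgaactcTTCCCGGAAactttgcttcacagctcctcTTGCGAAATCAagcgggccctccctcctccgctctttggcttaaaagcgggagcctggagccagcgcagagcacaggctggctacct

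The Steap4 window held a TTCNNNGAA match 116 bases before the RefSeq start, a TTGCNNAA match that overlaps a reversed TGANNNNGC match, and a reversed GGGNNTTCC match. Of 32851 promoter windows, 7.02% held TTCNNNGAA, 9.56% TTGCNNAA, 35.2% TGANNNNGC, 4.98% GGGNNTTCC and 16.6% ACGTG. The Cp window held none of the 5, and a window for a second Cp start held a reversed TTGCNNAA match 70 bases before that start. Among the other genes, Fth1 held 2 TTGCNNAA matches, Steap3 held TTGCNNAA and TGANNNNGC, Slc11a1 held TGANNNNGC, Tfrc held ACGTG and Ftl1 held none of the 5, counting both strands and all their windows. A match is a string of letters and was not measured as a binding site, and the windows leave distant elements out.

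By ratio alone, the protein-coding genes nearest to Cp among 8251 that averaged 10 CPM or more were Kcnj15, a potassium channel gene with 344 counts in the mrWNT2 library and 4 in control, and Prickle2, a planar cell polarity gene with 397 and 3. Their log2 ratios of 6.50 (5.13 to 8.38) and 7.12 (5.56 to 9.40) have wide intervals, and both reached that mean through the mrWNT2 library, so their place next to Cp is imprecise. Nearest to Steap4 were the transcription factor gene Pou2f2 (log2 ratio 4.62, 3.99 to 5.32) and the interleukin gene Il1a (4.32, 3.98 to 4.67), beside 4.57 (3.70 to 5.59) for Steap4. Likeness here rests on 1 ratio from 2 libraries.

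Uptake genes did not differ as a block, because the transferrin receptor and the SLC11 transporters behaved differently. Tfrc (ENSMUSG00000022797, chromosome 16, 32608920 to 32632794, plus strand) encodes the receptor that brings in transferrin-bound iron and that dividing cells need. It had 3152 counts in the mrWNT2 library, or 248 CPM, and 3528 counts in control, or 264 CPM. The ratio was 1.06-fold lower (1.01 to 1.12), a small difference. Its log2 ratio was -0.090 (-0.160 to -0.020) with TMM scaling and -0.068 with library totals. Whether the interval leaves out an equal level thus depends on the scaling.

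Slc11a1 (ENSMUSG00000026177, chromosome 1, 74375195 to 74386062, plus strand) encodes NRAMP1, which pumps metal ions out of the phagosome of macrophages and neutrophils. Some inbred mouse strains carry a loss-of-function allele of it, which a transcript count would not show. It had 2305 counts in the mrWNT2 library and 1408 in control, or 181 and 105 CPM (1.72-fold higher, 1.61 to 1.84). Slc11a2 (ENSMUSG00000023030, chromosome 15, 100387898 to 100425072, minus strand) encodes DMT1, which moves ferrous iron across the endosomal and plasma membranes. It had 349 counts in the mrWNT2 library and 174 in control, or 27.4 and 13.0 CPM (2.11-fold higher, 1.75 to 2.54).

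The intervals of the SLC11 genes overlapped in part, and the difference between their ratios was not tested. Their levels were far apart, with Slc11a1 at 11.3 times the FPKM of Slc11a2 in the mrWNT2 library and at 13.9 times in control. The gene overlapping Slc11a2 on the opposite strand, Gm5475, had 0 counts in both libraries.

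**Figure D2:**
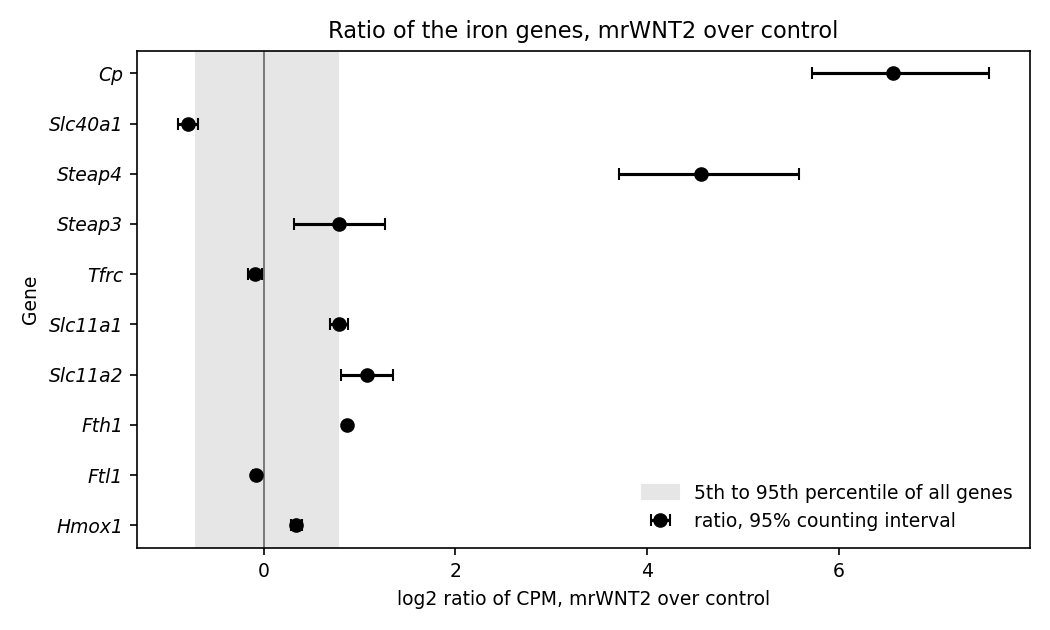
Log2 ratio of CPM, mrWNT2 over control (horizontal axis), for each of the 10 genes (vertical axis), with bars for the exact 95% counting interval from 1 library per group. The grey band runs between the 5th and 95th percentiles of the 12856 genes, -0.71 and 0.78, and Cp at 6.56 and Steap4 at 4.57 lie farthest from it.

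Iron storage accounted for nearly all of the difference in level. The 10 genes together took 1.43% of the counts in the mrWNT2 library and 0.877% in control, and summed to 14178 and 8835 CPM. Fth1 alone was 5251 CPM higher in the mrWNT2 library. Fth1 (ENSMUSG00000024661, chromosome 19, 9982703 to 9985092, plus strand) encodes the ferritin heavy chain, which oxidises ferrous iron as it enters the shell. It had 147602 counts in the mrWNT2 library and 84993 in control, or 11607 and 6356 CPM. These are 1.17% (1.16 to 1.18) of the counts in the mrWNT2 library and 0.631% (0.627 to 0.635) in control, and the ratio was 1.83-fold higher (1.81 to 1.84). By FPKM, Fth1 was the gene at rank 5 in the mrWNT2 library and at rank 6 in control.

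The light chain did not differ in the same way. Ftl1 (ENSMUSG00000050708, chromosome 7, 45457944 to 45459884, minus strand) encodes the chain that favours mineral formation inside the shell and has no ferroxidase centre. It had 19653 counts in the mrWNT2 library and 21863 in control, or 1545 and 1635 CPM (1.06-fold lower, 1.04 to 1.08). The heavy chain therefore stood at 11.6 times the FPKM of the light chain in the mrWNT2 library (interval 11.4 to 11.8) and at 6.02 times in control (5.93 to 6.11). That ratio is formed within each library and does not depend on scaling, but its size rests on the gene lengths used. By counts alone it was 7.51 in the mrWNT2 library and 3.89 in control. Both genes carry the hairpin printed above in the 5′ UTR.

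Many processed copies of the ferritin genes exist, and how the counting divided reads between them and the genes is not known. Of the rows that the table describes as heavy chain copies, Fth-ps2 was the only 1 with a count, at 8 counts in the mrWNT2 library and 17 in control. Adding every heavy chain copy to Fth1 left the log2 ratio at 0.87, which so few counts could not have moved. The light chain copy Ftl1-ps1 had 318 counts in the mrWNT2 library and 308 in control, and Ftl2-ps had 13 and 18. With all light chain copies added, the log2 ratio was -0.08, as for Ftl1 alone. Reads counted for neither a gene nor a copy would not show in these sums.

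**Figure D3:**
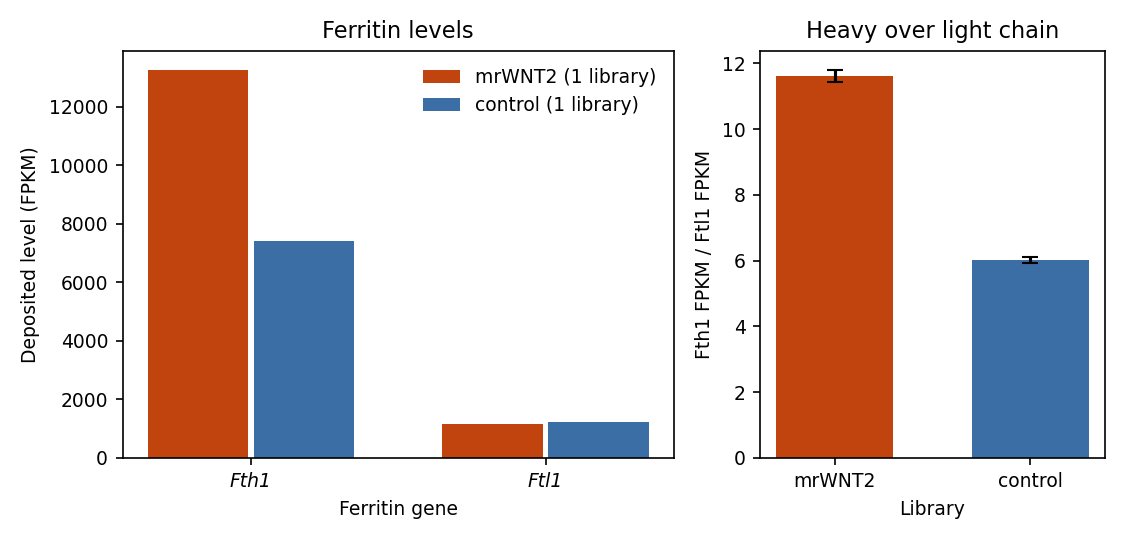
Left, deposited FPKM (vertical axis) of the ferritin heavy chain gene Fth1 and the light chain gene Ftl1, with 1 bar for the mrWNT2 library and 1 for the control library; right, Fth1 FPKM over Ftl1 FPKM in each library, with the exact 95% counting interval. Fth1 was at 13248 FPKM in the mrWNT2 library and 7425 FPKM in control, Ftl1 at 1140.0 and 1234 FPKM, and their ratio was 11.6 and 6.02.

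The genes that serve ferritin differed little. Ncoa4, which encodes the receptor that delivers ferritin for breakdown in lysosomes, had 3165 counts in the mrWNT2 library and 3308 in control (log2 ratio 0.01, -0.06 to 0.08). Pcbp1, which encodes a chaperone that hands iron to ferritin, was 1.10-fold higher (1.04 to 1.16). Of 9 listed storage and chaperone genes, 7 were measured and all 7 lay within 1.5-fold, with a median log2 ratio of 0.12. The mitochondrial ferritin gene Ftmt had 0 counts in both libraries.

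No haem breakdown gene passed the 1.5-fold mark. Hmox1 (ENSMUSG00000005413, chromosome 8, 75093621 to 75100589, plus strand) encodes the inducible haem oxygenase, which splits haem into iron, biliverdin and carbon monoxide. It had 4678 counts in the mrWNT2 library and 3880 in control, or 368 and 290.1 CPM (1.27-fold higher, 1.21 to 1.32), below the 1.5-fold mark. The constitutive haem oxygenase gene Hmox2 had 687 counts in the mrWNT2 library and 676 in control (log2 ratio 0.10, -0.06 to 0.25). The biliverdin reductase genes Blvra and Blvrb were 1.23-fold (1.07 to 1.42) and 1.16-fold (1.02 to 1.31) higher. All 4 further genes of this step lay within 1.5-fold, with a median log2 ratio of 0.19.

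Among genes of haem and haemoglobin uptake, 5 of 6 were measured, 2 were at least 1.5-fold higher and 1 lower. Cd163, the haemoglobin-haptoglobin scavenger receptor gene and itself a macrophage marker, had 1087 counts in the mrWNT2 library and 2979 in control (2.61-fold lower, 2.43 to 2.80). Its ligand gene Hp, for haptoglobin, had 23384 counts in the mrWNT2 library and 14453 in control (1.70-fold higher, 1.67 to 1.74), so receptor and ligand differed in opposite directions. The other higher gene was Marco (8.67-fold, 7.94 to 9.48), a scavenger receptor listed there that is not a dedicated haem receptor. Slc48a1, which encodes the transporter that returns haem from the lysosome, was 1.07-fold higher (1.01 to 1.14).

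Haem synthesis was followed as the opposite arm. Of 14 listed genes 13 were measured, and 1 was at least 1.5-fold higher. That gene was Alas1, which encodes the first enzyme of the pathway outside red cells, with 7591 counts in the mrWNT2 library and 4628 in control (1.73-fold higher, 1.66 to 1.79). The other 12 lay within 1.5-fold, and the list's median log2 ratio was 0.09. The erythroid enzyme gene Alas2 had 3 counts in the mrWNT2 library and 1 in control. Erythroid markers summed to 10.5 CPM in the mrWNT2 library and 9.35 CPM in control, with Hbb-bs, Slc4a1 and Epb42 at 0 in both.

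**Figure D4:**
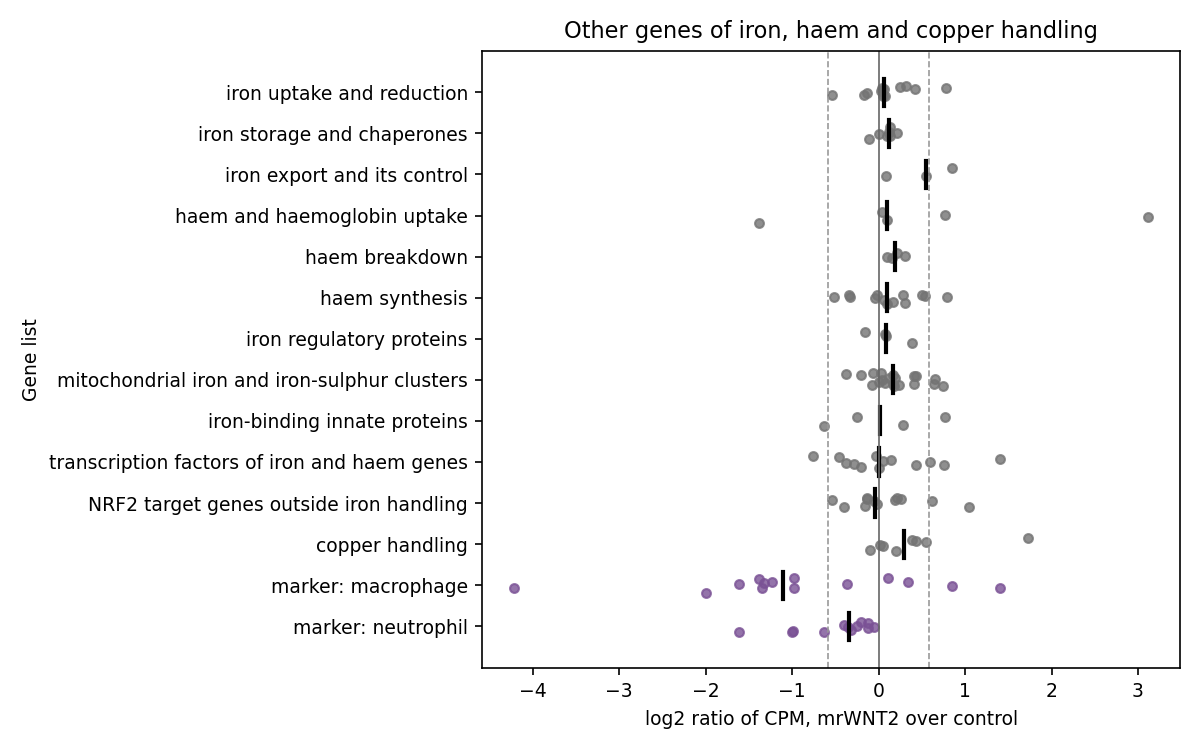
Log2 ratio of CPM, mrWNT2 over control (horizontal axis), of each measured gene (points) in lists of iron, haem and copper handling and in 2 marker lists (vertical axis), from 1 library per group. Vertical bars are list medians and dashed lines mark 1.5-fold. Most points of the iron lists lie inside the dashed lines, and the macrophage markers, with a median of -1.11, lie mostly below them.

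Across the 12 wider lists, 102 of 124 genes were measured, of which 14 passed the 1.5-fold mark upwards and 3 downwards, with a median log2 ratio of 0.10. Among all 12856 genes, 980 passed it upwards and 902 downwards. The iron uptake and reduction list held 1 of the 14 among 12 measured genes. This was Slc39a7, a zinc transporter gene listed there, and its interval included a ratio of 1. Trf, the transferrin gene, had 137 counts in the mrWNT2 library and 138 in control. The importer gene Slc39a14 was 1.18-fold higher with an interval of 0.997 to 1.41.

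Export and haem export genes had 3 of 10 measured, of which Flvcr2, a haem and choline transporter gene, had a log2 ratio of 0.85 (0.30 to 1.41) from 77 counts in the mrWNT2 library and 45 in control. Mitochondrial iron and iron-sulphur cluster genes had 3 of 20 at least 1.5-fold higher and 0 lower, with a median of 0.16. These were the mitochondrial iron importer gene Slc25a37 (1.57-fold, 1.46 to 1.69), the ferredoxin gene Fdx1 (1.67-fold, 1.24 to 2.26) and the outer membrane protein gene Cisd1 (1.56-fold, 1.26 to 1.94).

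The transcripts of the iron regulatory system itself lay close to 1. Aco1, which encodes iron regulatory protein 1, had a log2 ratio of 0.07 (-0.08 to 0.23), and Ireb2, which encodes iron regulatory protein 2, had one of -0.16 (-0.26 to -0.05). Fbxl5, which encodes the iron-sensing ligase subunit that removes iron regulatory protein 2, had 0.08 (0.04 to 0.13). All 4 listed genes of this group lay within 1.5-fold.

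Transcription factors known for iron and haem genes were mixed, with 3 of 13 measured genes at least 1.5-fold higher and 1 lower. The higher genes were Spic, Nr1h3, which encodes the oxysterol receptor LXR alpha (1.69-fold, 1.35 to 2.12), and Maff, which encodes a small MAF partner (1.51-fold, 1.25 to 1.82). Maff stood at 1.47-fold under DESeq2 size factors, inside the mark. The lower one was Epas1, whose interval included 1 from 23 counts in the mrWNT2 library and 41 in control. Bach1, which encodes a haem-sensing repressor of Hmox1 and the ferritin genes, was lower, with 1773 counts in the mrWNT2 library and 2559 in control (1.37-fold, 1.29 to 1.46). Nfe2l2, which encodes the activator NRF2, had a log2 ratio of -0.03 (-0.12 to 0.07).

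Other known targets of NRF2, which is also known to induce the ferritin genes and Hmox1, went both ways. All 12 were measured, 2 were at least 1.5-fold higher and 0 lower, 4 had an interval above 1 and 4 below it, and the median log2 ratio was -0.04. The cystine transporter gene Slc7a11 was 2.06-fold higher (1.91 to 2.22), and Pir was 1.53-fold higher with an interval that included 1. Under DESeq2 size factors and deposited FPKM Pir had a log2 ratio of 0.58, inside the mark, which left 1 gene past it. Osgin1, which encodes a growth inhibitor, was 1.46-fold lower (1.28 to 1.66), and the quinone reductase gene Nqo1 was 1.32-fold lower (1.19 to 1.46).

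Iron-binding proteins that neutrophils release differed in direction. Ltf, the lactoferrin gene, had 94081 counts in the mrWNT2 library and 153624 in control (1.55-fold lower, 1.54 to 1.57). Lcn2, which encodes a protein that captures bacterial siderophores, had 117014 counts in the mrWNT2 library and 100916 in control (1.22-fold higher, 1.21 to 1.23). Neutrophil markers, a list that holds Ltf, summed to 68130.2 CPM in the mrWNT2 library and 84682 CPM in control. Of the 12, 4 were at least 1.5-fold lower, 0 were at least 1.5-fold higher and none was at 0. All 12 had an interval below 1, and their median log2 ratio was -0.34. The share of all 12856 genes past the same mark was 7.02% downwards and 7.62% upwards. The part of neutrophil content in the Ltf value was not tested.

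The libraries held 12621110 counts for mrWNT2 and 13474453 for control, and 20202 and 20574 genes had at least 1 count. All 8 markers of MDSC identity were detected in both, with S100a8 and S100a9 among the highest, and summed to 37288 CPM in the mrWNT2 library and 43864 CPM in control. Within that list the granulocyte marker Ly6g had 1098 counts in the mrWNT2 library and 2315 in control, and the monocyte and macrophage marker Csf1r had 4405 and 1954. Stromal and endothelial markers summed to 83.8 CPM in the mrWNT2 library and 74.0 CPM in control, with 4 of 8 measured at least 1.5-fold lower and 1 higher. Of all 12856 genes, 7.02% passed that mark downwards and 7.62% upwards. The median log2 ratio of these markers was -0.80 and the highest 2.99, so sum and median differed in direction. Lymphoid markers summed to 26.2 and 27.3 CPM, with all 3 measured within 1.5-fold. The part of any change in cell content in the values above was not tested.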

How the data were processed

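Per the labels' protocols, TRIzol was used for RNA and the NEBNext Ultra RNA kit for libraries. Tools in the submitters' processing notes are DESeq2 1.20.0, featureCounts 1.5.0-p3, HISAT2 2.0.5, fastp and CASAVA 1.8, with build GRCm38, and the strand setting is not given. The deposited tables hold raw counts and FPKM, FPKM being scaled to gene length and library size by the authors. Coordinates are those of the count table. Counts were scaled here with TMM factors (1.01 for mrWNT2 and 0.992 for control) in edgeR 4.0.16 and expressed as CPM. FPKM was used for levels between genes.

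Log2 ratios had no pseudocount, and intervals came from the 2 counts. A count of 0 allows up to 3 counts, or 0.236 CPM for mrWNT2 and 0.224 CPM for control. Reads carry no molecular identifiers, so intervals and floors cover counting error only. The interval method was run on simulated counts that held counting error alone, which is what the interval assumes. That run checks the code and cannot show how the intervals hold up to variation between cultures. The genes and lists were chosen with earlier results of these data known. Named were the 10 genes and, whatever their values, Trf, Heph, Hamp, Ncoa4, Pcbp1, Hmox2, Blvra, Blvrb, Slc48a1, Bach1, Nfe2l2, Aco1, Ireb2, Fbxl5, Cd163, Hp, Lcn2, Ltf, Slc39a14, Mt1 and Mt2, and in each list up to 4 measured genes (mean of 1 CPM or more) at least 1.5-fold apart with an interval off 1, and the 2 genes nearest in ratio to Cp and to Steap4. The marker genes, Slc39a7, Epas1, Pir, Ftmt, Slc31a1, Atox1, Atp7a, Osgin1, Nqo1 and the ferritin and STEAP relatives were named after their values were seen. Of the listed symbols, Hjv, Ciao2b, Fdx2 and Ahsp matched no row. Alternatives were DESeq2 1.42.0 size factors, library totals, deposited FPKM, other level minimums, 2-fold and a pseudocount of 1 CPM.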

Additional observations from a re-analysis of the deposited data

How the results depend on the processing

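The direction of all 10 genes was the same under DESeq2 size factors, library totals, deposited FPKM and a pseudocount of 1 CPM. The log2 ratio of Fth1 was 0.835 under DESeq2 size factors and 0.891 under library totals, outside its interval of 0.857 to 0.881. That of Ftl1 was -0.115 under DESeq2 size factors, outside -0.109 to -0.053. The ferritin intervals are thus narrower than the effect of the scaling choice. With the pseudocount the log2 ratio was 5.43 for Cp and 3.49 for Steap4. At 2-fold, 3 of the 10 genes were higher and 0 lower. Of the 9 averaging 10 CPM or more, 5 were at least 1.5-fold higher and 1 lower. Cp (77.7 CPM in the mrWNT2 library) and Steap4 (19.5 CPM) reached that mean only through the mrWNT2 library. Each was at 0.823 CPM in control, so this minimum is no separate check on them. The count of all genes depended on the level minimum: with none, 2532 of 18693 were at least 1.5-fold higher and 2675 lower, and 1543 and 1270 at 2-fold, while with a mean of at least 10 CPM these were 352 and 252 of 8543, and 154 and 61. Against the protein-coding total, ferritin took 1.35% of the counts in the mrWNT2 library and 0.808% in control, against 1.33% and 0.793% of all counts. Of the wider lists, Maff and Pir did not pass 1.5-fold under DESeq2 size factors and deposited FPKM, with log2 ratios of 0.56 and 0.58. No paired analysis was possible because each group had 1 library, so no replicate could be left out either. The depth limits Cp and Steap4, each with 11 counts in control, and their ratios are the least precise of the 10.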

Other observations

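Ceruloplasmin carries copper, and genes of copper handling were looked at beside it. Of 10 listed genes, 8 were measured, and 1 of these passed the 1.5-fold mark upwards and 0 downwards, with a median log2 ratio of 0.29. The higher gene was Mt1, which encodes a metallothionein that binds zinc and copper, with 3894 counts in the mrWNT2 library and 1239 in control (3.31-fold, 3.10 to 3.53). Its neighbour in the family, Mt2, had 3 counts in the mrWNT2 library and 1 in control. The copper importer gene Slc31a1 had 1736 counts in the mrWNT2 library and 1398 in control (1.31-fold, 1.22 to 1.40), and the copper chaperone gene Atox1 was 1.35-fold higher (1.22 to 1.49). Atp7a, which encodes the pump that loads copper into secreted enzymes, had a log2 ratio of 0.01 (-0.15 to 0.18).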
